A study of Mus musculus with 96 samples.

Results

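Cytosolic ribosomal protein genes encode the protein building blocks of the ribosome. They were taken here as all protein-coding genes whose symbol is Rpl or Rps followed by a number, with an optional a, x or y, together with Rplp0, Rplp1, Rplp2 and Rpsa. This gave 76 of the 37620 genes in the count tables, and no pseudogene or predicted gene was among them. The large (60S) subunit had 42 members, the small (40S) subunit 31 and the P stalk 3. They lie on 19 chromosomes, and 4 of them are on the X chromosome.

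The study profiled mouse embryonic stem cells (ESCs) in which RYBP, a subunit of variant Polycomb repressive complexes, or WDR5, a core subunit of the Trithorax-group COMPASS histone methyltransferases, was depleted, mutated or overexpressed. Of the 96 samples in the series, 26 RNA-seq libraries in 13 groups of 2 and 14 lists of ChIP-seq peaks were used. R1 ESCs carried the empty vector (shEV), a knockdown of RYBP (shRybp) or a knockdown of WDR5 (shWdr5), and R1 ESCs labelled WT ESC were compared with R1 ESCs carrying the TF-AA mutation. In the R7.15 line, Rybp-floxed control ESCs (Rybp+/+) were compared with Rybp-/- ESCs obtained with 5 μM 4-OHT for 4 days, so that loss of RYBP and exposure to 4-OHT cannot be told apart. The same line, RYBPfl/fl with Rosa26::CreERT2 and exposed to 4-OHT in both groups, carried either overexpressed WT RYBP (WT.RYBP) or RYBP with a deletion of 21 amino acids (RYBP phase disruption). J1 ESCs with Tet-on RYBP received vehicle or DOX, and the line rTRS, with DOX-induced integration of Rybp and Stat3, was a control (NTC) or received DOX. For ChIP-seq alone, RING1B was also profiled in R1 ESCs with a knockdown of Stat3 (shStat3) beside shEV, and RING1B and STAT3 in R1 ESCs with DOX-induced Rybp and Stat3, without DOX (Tet.Rybp.Stat3.DOX-) or with it (Tet.Rybp.Stat3.DOX+). Nothing in the descriptions says that both libraries of a group came from separate cultures, so the tests measure only the spread between these libraries.

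A ribosome holds a single copy of nearly every ribosomal protein, and the genes are transcribed at high levels in dividing cells. Their mRNAs belong to the TOP class, which begins with a cytidine followed by a run of pyrimidines, and their translation is tuned by mTORC1 through LARP1. Ribosomal proteins made without a partner are degraded, and RPL5 and RPL11 outside the ribosome bind MDM2, which brings p53 into play. WDR5 is also known to bind chromatin with MYC, a transcription factor that drives genes of ribosome production.

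The members took 5.30% to 9.11% of the counts on genes in each library, and these libraries held 14512857 to 81049618 gene counts. Named pseudogenes of ribosomal protein genes, 163 in number, took 0.0273% to 0.0659%. Reads with several alignments were not counted, and they amounted to 5.06 to 7.47 per 100 gene counts in most tables that list them, 17.8 to 19.5 in the table of RYBP knockdown and 24.7 to 26.4 in that of rTRS. Reads from stretches shared with near-identical copies are thus missing from the members' counts, which makes the level of any member with such copies uncertain. The same shEV libraries had 18.6 and 17.8 such reads per 100 gene counts in the table of RYBP knockdown but 5.86 and 5.60 in that of WDR5 knockdown. Their gene counts in the table of WDR5 knockdown were 50.9% and 50.6% of those in the table of RYBP knockdown. These values therefore also depend on how each table was made. All 76 members passed the filter on low counts in each table. In the shEV and shWdr5 libraries, the mean level ran from 95.8 CPM (counts scaled to library size, with TMM factors) for Rpl29 to 4086 for Rps2. Per kilobase of the deposited gene length, Rps15a had the lowest mean level with 57.3 CPM per kb, and Rplp1, an acidic protein of the stalk, the highest with 3812.

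**Figure D1:**
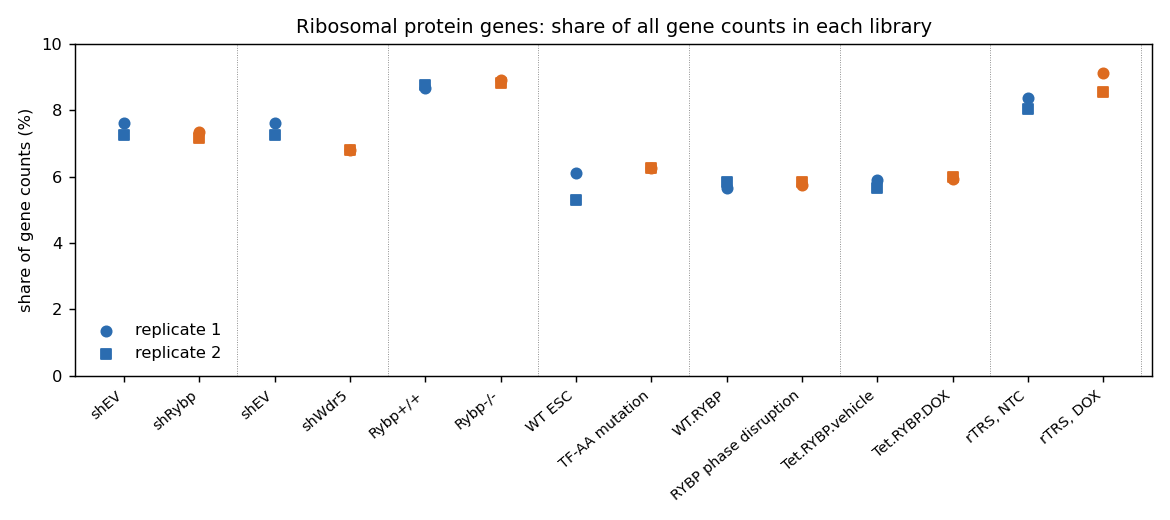
Share of all gene counts taken by the 76 ribosomal protein genes, in percent, in each RNA-seq library. Circles are replicate 1 and squares replicate 2, blue marks controls and orange the altered group, and dotted lines part the 7 tables, with the shEV libraries drawn in both tables that hold them. The shares run from 5.30% in WT ESC replicate 2 to 9.11% in rTRS, DOX replicate 1, and the WT ESC replicates lie at 6.10% and 5.30%.

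Promoter sequences were available for 55 of the 76 members in the RefSeq table of GRCm38.p6, and 21 were not matched. The stretches printed run from 60 bases before the RefSeq start to its first 20 bases, 5′ to 3′ on the strand of the gene, and capitals mark a run of at least 4 C or T bases that covers the first transcribed base. Rpl35 (chr2:39005112-39005191, minus strand), Rpl34 (chr3:130730318-130730397, minus strand) and Rpl7a (chr2:26910747-26910826, plus strand) are shown as members with the longest runs among promoters strongly bound by WDR5, Rpl37a (chr1:72711200-72711279, plus strand), Rpl24 (chr16:55966215-55966294, plus strand) and Rpl5 (chr5:107900468-107900547, plus strand) as strongly bound promoters without such a run, Rpl27a (chr7:109519135-109519214, plus strand) and Rpl28 (chr7:4792905-4792984, plus strand) as weakly bound promoters, Rps27 (chr3:90213629-90213708, minus strand) and Rps21 (chr2:180257319-180257398, plus strand) as promoters without a WDR5 peak, and Rpl10 (chrX:74270756-74270835, plus strand) as the member that fell most after RYBP depletion.
Rpl35: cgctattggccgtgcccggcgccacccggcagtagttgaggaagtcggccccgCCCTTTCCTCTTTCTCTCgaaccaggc
Rpl34: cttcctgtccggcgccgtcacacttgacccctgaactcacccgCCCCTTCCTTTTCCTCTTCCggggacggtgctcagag
Rpl7a: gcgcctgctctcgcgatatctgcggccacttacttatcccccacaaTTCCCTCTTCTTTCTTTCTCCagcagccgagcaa
Rpl37a: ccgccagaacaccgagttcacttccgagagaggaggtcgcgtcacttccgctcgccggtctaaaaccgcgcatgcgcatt
Rpl24: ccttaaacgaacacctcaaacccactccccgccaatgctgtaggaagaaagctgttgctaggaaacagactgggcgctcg
Rpl5: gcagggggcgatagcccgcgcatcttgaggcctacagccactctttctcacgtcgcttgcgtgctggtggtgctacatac
Rpl27a: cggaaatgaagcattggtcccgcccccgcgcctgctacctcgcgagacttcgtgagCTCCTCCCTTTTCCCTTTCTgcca
Rpl28: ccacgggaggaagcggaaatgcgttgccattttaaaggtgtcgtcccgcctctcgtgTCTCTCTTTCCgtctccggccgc
Rps27: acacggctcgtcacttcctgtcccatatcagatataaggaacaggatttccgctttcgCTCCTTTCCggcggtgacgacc
Rps21: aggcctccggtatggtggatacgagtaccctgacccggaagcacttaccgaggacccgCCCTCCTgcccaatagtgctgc
Rpl10: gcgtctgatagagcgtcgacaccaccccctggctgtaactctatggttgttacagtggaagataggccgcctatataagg

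Of the 55 members with a sequence, 41.8% had such a pyrimidine run over the first base, against 16.0% of the 27025 genes in the table. A gene with several RefSeq starts was counted if any of them had the feature, so more starts give more chances. The run need not begin with C, and the first base was C in 34.5% of the members and 18.9% of all genes. The run was 18 bases long in Rpl35, 20 in Rpl34 and in Rpl27a, and 21 in Rpl7a. CTTTC or CTTTT lay within 20 bases of the start in 40.0% and 10.9%.

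Longer windows of 250 bases before to 50 after the start were searched on both strands for motifs of promoter-binding factors. CCGGAAG, read by ETS factors such as GABPA, occurred in 40.0% of the members and in 9.93% of all genes. GGGCGG, the box read by SP1, occurred in 33 of the 55 members and in 38.2% of all genes. TATAAA occurred in 10.9% and 15.7%, CCAAT in 32.7% and 41.1%, and CACGTG, the E-box read by MYC and MAX, in 10.9% and 8.09%. AAGATGGCG and CAAGATGGC, overlapping forms of the YY1 motif, occurred in 5.46% and 1.82% of the members and in 1.64% and 1.43% of all genes, and the NRF1 motif, searched as its palindromic core, in 3.64% and 1.07%. A match describes only the letters of the window.

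H3K4me3, the mark deposited by COMPASS at active promoters, was found at every ribosomal protein gene. A peak within 1 kb of the start was called at 76 of 76 members in both Rybp+/+ and Rybp-/- ESCs, against 63.8% and 64.0% of all protein-coding genes. The median fold enrichment over input at the members was 48.6 and 49.2. H3K27ac, the acetylation of active promoters and enhancers, had a peak at 74 members in Rybp+/+ and 75 in Rybp-/- ESCs, where 47.6% and 50.2% of protein-coding genes had one. Rpl13a and Rpl15 lacked an H3K27ac peak within 1 kb of the annotated start in Rybp+/+ ESCs, and Rpl13a lacked it in both. The start used for Rpl13a lies 15 bases from that of Flt3l on the same strand. Its window may therefore describe Flt3l rather than the promoter of Rpl13a, which was not tested. Each antibody and genotype has a single merged list, so these values carry no replicate error and no test between genotypes was made.

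**Figure D2:**
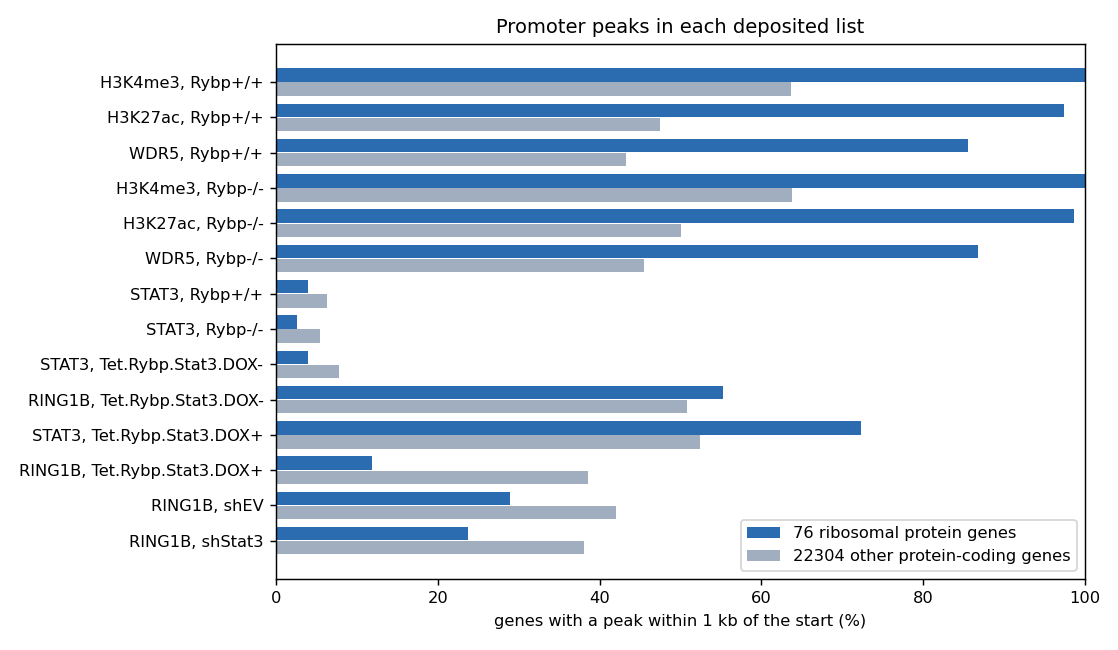
Percent of genes with a peak within 1 kb of the start in each of the 14 deposited lists, for the 76 ribosomal protein genes (blue) and the 22304 other protein-coding genes (grey). All 76 members have H3K4me3, 85.5% have WDR5 and 3.95% have STAT3 in Rybp+/+ ESCs.

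WDR5 bound the promoters of these genes at levels that fell into separate ranges. A WDR5 peak lay at 65 of the 76 members in Rybp+/+ ESCs, against 43.4% of protein-coding genes. In 41 members its fold enrichment over input was 18.8 to 67.5, with a median of 40.9, which placed each of them at or above percentile 95.0 of the whole list. In another 24 members it was 2.601 to 10.7, with a median of 5.97, and 11 members had no peak. No member lay between Rps19 at 10.7 and Rplp0 at 18.8, and a fold of 15, chosen after these values were seen, was used to part strongly from weakly bound promoters. Of the other protein-coding genes 3.92% reached that fold, against 53.9% of the members.

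Among the members, the strongest WDR5 peak of the Rybp+/+ list lay at the promoter of Rpl5, whose product binds 5S rRNA. It extended from chr5:108329392-108330454 in mm9 with a fold enrichment of 67.5, and its summit was 191 bases downstream of the start. Rpl17 followed at 64.0, Rps3a at 62.4 and Rpl13 at 61.3. Summits at strongly bound promoters lay a median of 191 bases downstream of the start, and 39 of 41 were downstream, while those at weakly bound promoters lay at a median of 63.5 bases. Strong peaks were also wider, with a median of 1248 bases against 638.5. The 60S subunit had 28 strongly bound, 11 weakly bound and 3 unbound genes. The 40S subunit had 12, 11 and 8, and of the stalk genes Rplp0 was strongly and Rplp1 and Rplp2 weakly bound.

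The classes were nearly the same after loss of RYBP. In the Rybp-/- list, where 45.7% of protein-coding genes had a WDR5 peak, 41 members were strongly and 25 weakly bound, and 75 of 76 members had the class they had in Rybp+/+ ESCs, the exception being Rps27 with a fold of 4.02 in Rybp-/- ESCs and no peak in Rybp+/+ ESCs. The ratio of Rybp-/- to Rybp+/+ fold ran from 0.533 to 2.52, with a median of 1.00 over the strongly bound and 1.36 over the weakly bound members. Over the 65 members with a peak in both lists the folds had a Spearman correlation of 0.804. The depth behind these lists was not examined, so the ratios describe the lists alone.

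STAT3, which relays LIF signalling in ESCs, had few peaks at ribosomal protein genes and at protein-coding genes in general, except in the list with DOX. In Rybp+/+ ESCs a peak lay at 3 members, Rplp0 and Rpsa among them, against 6.28% of protein-coding genes, and in Rybp-/- ESCs at Rpl21 and Rpl34, against 5.43%. In the line with Tet-controlled Rybp and Stat3, the list without DOX had STAT3 peaks at 3 members, Rpl35, Rpl38 and Rps6, against 7.72% of protein-coding genes, and the list with DOX at 55 members, against 52.5%. That list held 30663 peaks, the list without DOX 2816. The median fold enrichment at the members with DOX was 4.203, below the 5.19 at other protein-coding genes.

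RING1B, the ubiquitin ligase of Polycomb repressive complex 1, had peaks at 42 members without DOX, against 50.8% of protein-coding genes, and at 9 with DOX, against 38.4%. The number of peaks in the lists was 17021 and 12864. In shEV ESCs it had peaks at 22 members, against 42.0%, and in shStat3 ESCs at 18, against 38.1%. The members' median folds of 3.16 to 3.97 lay below those of other protein-coding genes, 5.08 to 6.09, in each of the 4 lists. Each condition has a single list, which for STAT3 in Rybp+/+ and Rybp-/- ESCs and RING1B in shEV and shStat3 ESCs rests on 1 library, and no difference between lists was tested.

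WDR5 depletion split the ribosomal protein genes. Wdr5 itself went from 350 and 343 CPM in shEV to 60.05 and 58.2 in shWdr5. Among the 76 members, 45 fell and 30 rose at an adjusted p under 0.05 in edgeR, where 63.0% of all genes tested were called, 31.5% higher and 31.5% lower. Among genes at least as abundant as the lowest member, 38.7% were lower and 37.4% higher. Fold changes ran from -1.79 to 0.85 on the log2 scale with a median of -0.34, against -0.01 over all genes tested, and 44 members moved by more than 0.5. The CPM of the shEV and shWdr5 libraries did not overlap for any member, as for 81.0% of all genes.

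Most of the falls were in the large subunit. Of its 42 genes, 30 fell and 12 rose, with a median of -0.58. Of the 31 genes of the small subunit 15 fell and 15 rose, with a median of 0.07, and the 3 genes of the stalk rose with a median of 0.48.

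Rpl29, a basic protein of the large subunit (chromosome 9, 106331785 to 106333899 in mm9), fell most. It had 149 and 148 CPM in shEV and 42.7 and 43.5 in shWdr5, a log2 fold change of -1.79 ± 0.06 (SE, edgeR, adjusted p = 8.42e-18). Rpl35 (chromosome 2, 38857100 to 38861144), at the exit of the peptide tunnel, had 261 and 250 CPM in shEV and 84.6 and 91.2 in shWdr5 (-1.54 ± 0.05, edgeR, adjusted p = 4.02e-17). In both genes the shWdr5 libraries lay below both shEV libraries, and replicates were close to each other. Rpl37a went from 920 and 830 CPM to 365 and 357 (-1.28 ± 0.05), and Rpl24, a protein of the subunit interface, from 676 and 648 to 304 and 298 (-1.14 ± 0.04). Rpl11, which with Rpl5 carries 5S rRNA and binds MDM2, went from 796 and 762 CPM to 446 and 456 (-0.79 ± 0.04). Rpl5 went from 982 and 936 to 682 and 671 (-0.50 ± 0.04). Both 5S partners therefore fell, and so did Rps6, the target of S6 kinase, at -0.44 ± 0.04, Rps14 at -0.40 ± 0.04 and the X-linked Rps4x at -0.59 ± 0.04.

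Rps21 (chromosome 2, 179992082 to 179993150) rose most, from 359 and 368 CPM in shEV to 662 and 651 in shWdr5 (0.85 ± 0.04, edgeR, adjusted p = 3.11e-14). Rps27, a zinc-finger protein of the small subunit, went from 416 and 374 CPM to 701 and 703 (0.83 ± 0.05), and Rps29 from 406 and 339 to 618 and 646 (0.76 ± 0.06). Rpl23a, a docking site for nascent-chain factors, rose from 198 and 188 CPM to 318 and 306 (0.69 ± 0.05). In these 4 genes every shWdr5 library was above every shEV library. Rplp0, the scaffold of the stalk, went from 2183 and 2199 CPM to 3193 and 3208 (0.55 ± 0.04), Rplp1 changed by 0.43 ± 0.04 and Rplp2 by 0.48 ± 0.04. Rpsa, which also serves as a laminin receptor precursor, changed by 0.28 ± 0.04, Rps19, mutated in Diamond-Blackfan anaemia, by 0.33 ± 0.04 and Rpl10 by 0.34 ± 0.04. Rps25 was the single member that did not pass the threshold, with 682 and 649 CPM in shEV and 710 and 691 in shWdr5 (0.07 ± 0.04, edgeR, adjusted p = 0.123).

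**Figure D3:**
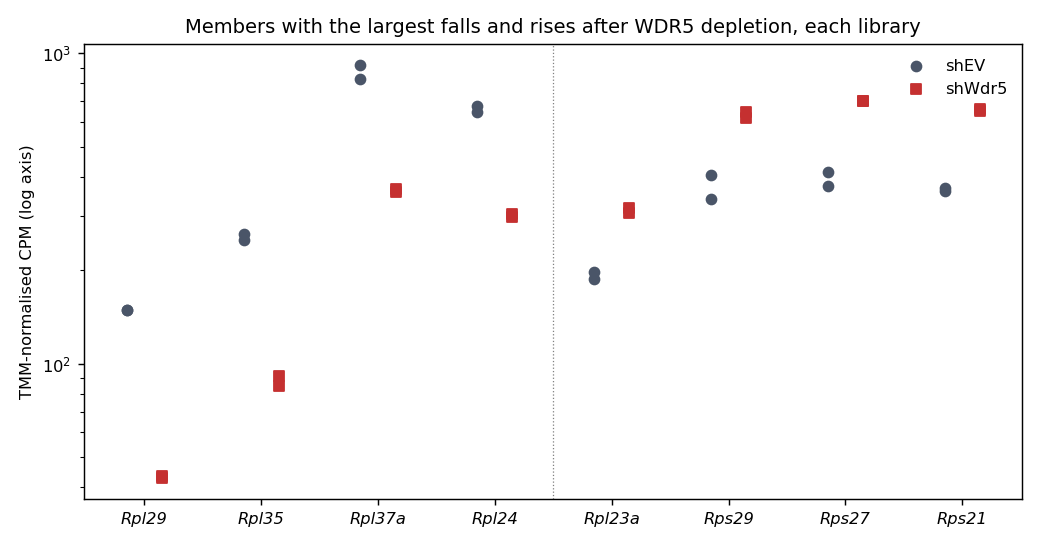
TMM-normalised CPM (log axis) of the 4 ribosomal protein genes with the largest falls and the 4 with the largest rises after WDR5 depletion, with each shEV (grey circles) and shWdr5 (red squares) library as a point. Rpl29 drops from 149 and 148 CPM to 42.7 and 43.5, while Rps21 goes from 359 and 368 to 662 and 651, and no gene has overlapping groups.

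The direction of change after WDR5 depletion went with the WDR5 class of the promoter. Of the 41 strongly bound members 39 fell, with a median log2 fold change of -0.65, and of the 24 weakly bound members 22 rose, with a median of 0.42. The 11 members without a peak were mixed, with 6 higher and 5 lower. Within the large subunit 27 of 28 strongly bound genes fell and 10 of 11 weakly bound genes rose, and within the small subunit 12 of 12 fell and 10 of 11 rose. The classes came from R7.15 ESCs and the RNA from R1 ESCs, so both measures share no library. Since the fold that parts the classes was set after these values were seen, the split is given as a description with no test.

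Few members went against this division. Rplp0 was strongly bound, with the lowest fold of its class at 18.8, and rose. Rpl18 was weakly bound with a fold of 7.35 and fell from 1756 and 1683 CPM to 1050 and 1092 (-0.68 ± 0.04). Rpl15 fell without a peak, from 698 and 665 CPM to 432 and 413 (-0.69 ± 0.04). Rps2 and Rps10, which fell by 0.22 and 0.32, had no peak within 1 kb of the annotated mm9 start. They had strong WDR5 peaks with folds of 39.1 and 51.0 whose summits lay 2066 and 1491 bases downstream of it. Whether another start of these genes lies nearer to those peaks was not tested, so their class may rest on the annotation.

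Strongly bound members with similar folds fell by different amounts. Rpl5, with the highest fold of 67.5, changed by -0.50, while Rpl29 and Rpl35, at 40.8 and 41.2, changed by -1.79 and -1.54. Rpl12, at 41.6, changed by -0.11 ± 0.04. Over the 65 bound members WDR5 fold and log2 fold change had a Spearman correlation of -0.691, and over the 66 members bound in Rybp-/- ESCs of -0.746. The corresponding values were -0.081 for H3K4me3 over 76 members, -0.041 for H3K27ac over 74 and -0.135 for gene length over 76. These are descriptions across genes of the same libraries and carry no p-value.

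Other protein-coding genes with strong WDR5 peaks did not show this division. Of the 848 tested with a fold of at least 15, 36.7% were lower and 30.7% higher after WDR5 depletion, with a median of -0.04. Among the 265 of them that were at least as abundant as the lowest member, 42.3% were lower and 32.1% higher, and among the 1775 weakly bound genes of that abundance 37.4% were lower and 37.1% higher. The starts of other protein-coding genes lay in the promoter window of 13 members, such as Med22 87 bases from Rpl7a, so that a peak there may belong to either gene.

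**Figure D4:**
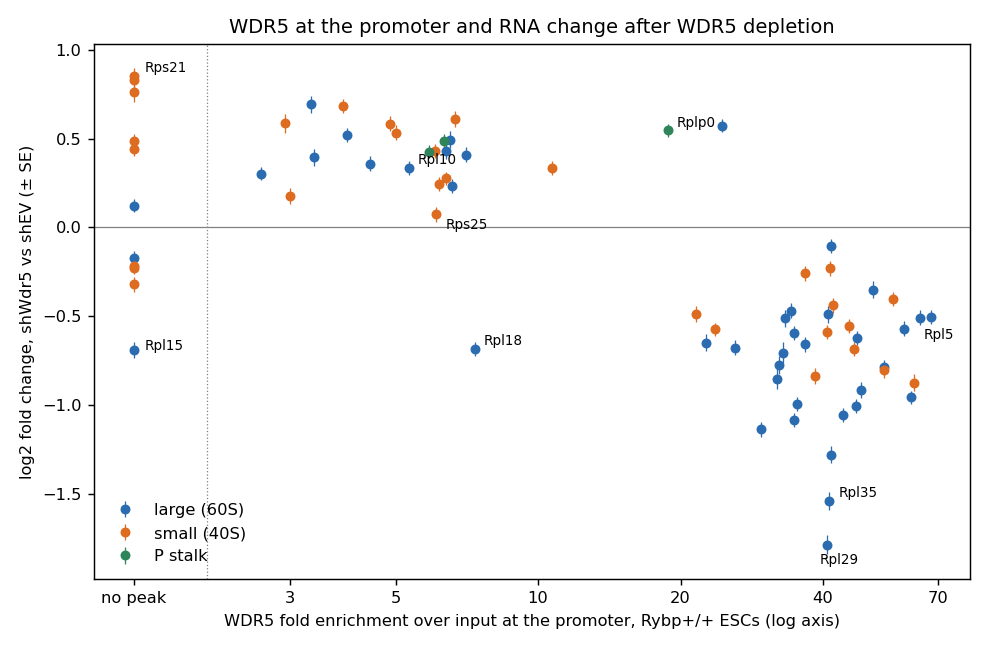
WDR5 fold enrichment over input at the promoter in Rybp+/+ ESCs (log axis, members without a peak at the left) against the log2 fold change of shWdr5 to shEV, for the 76 ribosomal protein genes coloured by subunit. Bars are the standard errors of edgeR. Of the 41 members with a fold of 18.8 to 67.5, 39 fell and Rplp0 is among those above 0, and the 24 with a fold of 2.601 to 10.7 lie above 0 except Rpl18.

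The same classes were set beside the other comparisons, in 4 of which Wdr5 itself was lower, at -0.49 after RYBP depletion, -0.14 in Rybp-/- ESCs, -0.24 with phase disruption and -0.38 in the libraries labelled rTRS, DOX (edgeR log2 fold changes). The part of this in the members' values was not tested. After RYBP depletion 32 of the 41 strongly bound and 18 of the 24 weakly bound members were lower, with medians of -0.22 and -0.19, against 74.4% and 67.7% of other protein-coding genes of the same classes and at least the members' abundance. In Rybp-/- ESCs the medians were -0.03 and 0.01, with phase disruption both were -0.05, with TF-AA 0.14 and 0.10, with RYBP overexpression 0.07 and 0.06, and in the libraries labelled rTRS, DOX 0.06 and 0.16. In rTRS 11 of the 41 strongly bound and 14 of the 24 weakly bound members were higher, and within the small subunit 3 of 12 and 9 of 11. Of the other protein-coding genes in these classes 20.5% and 26.3% were higher there, and at the members' abundance 14.6% and 18.5%. No test of the difference between classes was made.

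After RYBP depletion the share of ribosomal protein genes called lower was near that of other abundant genes and rested on the scaling. Rybp had 85.7 and 86.4 CPM in shEV and 35.8 and 36.6 in shRybp. Of the 76 members 56 fell and 3 rose in edgeR, where 52.7% of all genes tested were called, 26.0% lower and 26.8% higher, with a median of -0.20 against 0.02. Among genes at least as abundant as the lowest member, however, 68.1% were lower, close to the members' 73.7%, and 13.4% were higher. With library size alone, 20 members were lower and 11 higher, the median of the members was -0.04 and that of all genes 0.18. The members' share of gene counts was 7.62% and 7.26% in shEV and 7.36% and 7.16% in shRybp.

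Rpl10, an X-linked gene whose product joins the large subunit late in its maturation (71516151 to 71518474 in mm9), stood apart. It had 948 and 918 CPM in shEV and 254 and 235 in shRybp, a log2 fold change of -1.93 ± 0.05 (edgeR, adjusted p = 1.74e-15). The groups were far apart, and no other member fell by more than 0.65. Near-identical copies of Rpl10 exist, and reads shared with them were not counted. Its paralog Rpl10l had its own row in the table. In the shWdr5 libraries, compared with the same shEV libraries, Rpl10 rose by 0.34, and in Rybp-/- ESCs it had 1205 and 1222 CPM in Rybp+/+ and 1249 and 1262 in Rybp-/- (0.05 ± 0.03, edgeR, adjusted p = 0.124). The next falls were those of Rpl3, a core protein near the peptidyl transferase centre, from 1079 and 1019 to 687 and 652 CPM (-0.65 ± 0.04), and Rpl31, from 1194 and 1163 to 804 and 744 (-0.61 ± 0.04). Rps13 changed by -0.37 ± 0.05, Rpl5 by -0.28 ± 0.04 and Rpl11 by -0.25 ± 0.04. Among the 3 members that rose were Rps28 (0.35 ± 0.06) and Rps15 (0.16 ± 0.04). Rplp0 and Rpsa did not pass the threshold, at -0.05 ± 0.03 and -0.06 ± 0.03, and with library size alone they had 0.10 and 0.09.

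In Rybp-/- ESCs ribosomal protein genes hardly moved. Rybp had 110 and 110 CPM in Rybp+/+ and 24.8 and 25.0 in Rybp-/-, at 75496499 to 81049618 gene counts per library. Of the members 12 fell and 6 rose, where 45.5% of all genes were called, 22.7% lower and 22.8% higher, and the 18 calls are 23.7% of the members. Among genes at least as abundant as the lowest member, 33.8% were lower and 26.0% higher. The balance of directions rested on the scaling, with 17 members higher and 8 lower with library size alone and 7 in each direction with DESeq2. The median was -0.01, and all values lay between -0.22 and 0.14. Rps28 had the largest fall, with 545 and 552 CPM in Rybp+/+ and 502 and 442 in Rybp-/- (-0.22 ± 0.04, edgeR, adjusted p = 1.08e-05). Rpl3 went from 2572 and 2488 to 2295 and 2293 (-0.14 ± 0.02), and Rpl38, linked to translation of Hox mRNAs, changed by -0.14 ± 0.04. Rplp1 went from 2043 and 2093 to 2277 and 2280 (0.14 ± 0.02) and Rplp0 from 3162 and 3313 to 3499 and 3598 (0.13 ± 0.02). Rplp0 and Rplp1 thus lay above both control libraries, by a small amount. Without Rybp+/+ replicate 1 there were 13 higher and 21 lower members, without Rybp+/+ replicate 2 there were 17 and 19, and without Rybp-/- replicate 2 there were 3 lower, and Rps28 was not called by DESeq2.

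Overexpression of RYBP in J1 ESCs left these genes nearly as they were. Rybp went from 135 and 145 CPM with vehicle to 522 and 535 with DOX. Of the members 7 rose and 1 fell, where 6.02% of all genes were called, 3.63% higher and 2.39% lower, with a median of 0.06. Among genes of at least the members' abundance, 6.53% were higher and 3.52% lower. Rps15a fell from 348 and 351 to 299 and 314 (-0.19 ± 0.05). Rpl23a rose by 0.16 ± 0.05, Rpl27 by 0.15 ± 0.04 and Rpl19 by 0.14 ± 0.04. These counts rested on single libraries and on the scaling, with 1 higher and 1 lower under library size alone. Without vehicle replicate 1 there were 46 higher and 1 lower, without vehicle replicate 2 there were 11 and 5, without DOX replicate 1 there was 1 higher, and without DOX replicate 2 none was called. The call of Rps15a was lost without either DOX replicate.

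Cells with the 21 amino acid deletion of RYBP were compared with cells overexpressing WT RYBP. Rybp had 749 and 753 CPM in WT.RYBP and 662 and 626 in RYBP phase disruption. Of the members 20 were lower and 7 higher, where 33.0% of all genes were called, 17.0% lower and 16.1% higher. Among genes of at least the members' abundance, 36.5% were lower, above the members' 26.3%, and 11.5% higher. Rpl39, a small protein of the exit tunnel, had the largest fall, from 176 and 165 CPM to 144 and 136 (-0.29 ± 0.05, edgeR, adjusted p = 5.7e-05). Rps16 changed by -0.23 ± 0.04, Rps19 by -0.23 ± 0.05 and Rpl14 by -0.23 ± 0.04. Rpl23a rose from 330 and 388 CPM to 459 and 399 (0.26 ± 0.06), with the lower library of the second group close to the higher control, and Rps26 from 780 and 834 to 990 and 929 (0.25 ± 0.04). With library size alone 11 were higher and 5 lower. Without WT.RYBP replicate 1 there were 1 higher and 11 lower, and without WT.RYBP replicate 2 there were 8 lower. The call of Rpl23a was lost without WT.RYBP replicate 1, without RYBP phase disruption replicate 1 and under DESeq2.

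With the TF-AA mutation, the members' values hung on 1 control library. In edgeR 10 were higher and 2 lower, against 14.4% and 16.1% of all genes and 30.5% in either direction, with a median of 0.13. Among genes of at least the members' abundance, 8.42% were higher and 24.3% lower. WT ESC replicate 2 had lower levels of most members than replicate 1, by a median of 0.22 on the log2 scale and over a range of -0.41 to 1.08. Without it 5 members were higher and 7 lower with a median of -0.02, and without WT ESC replicate 1 there were 56 and 3, with a median of 0.24. Rps24, whose last exons are alternatively spliced, had 897 and 846 CPM in WT ESC and 1303 and 1423 in TF-AA mutation (0.65 ± 0.07, edgeR, adjusted p = 3.09e-07), and Rpl15 had 758 and 703 against 1097 and 1124 (0.60 ± 0.07). Rpl6 had 2153 and 2178 against 1645 and 1740 (-0.36 ± 0.07), and Rpl21 878 and 836 against 681 and 728 (-0.28 ± 0.07). In these 4 genes both control libraries lay apart from both TF-AA libraries, and of their calls only that of Rpl21 was lost with a library left out, without TF-AA mutation replicate 1. Rps29 had 173 and 83.05 CPM in WT ESC and 183 and 170 in TF-AA mutation (0.46 ± 0.17), with overlapping groups, and its call was lost under DESeq2 and without WT ESC replicate 2. Without TF-AA mutation replicate 1 there were 4 higher and 1 lower members, and without replicate 2 of that group 3 were higher.

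The libraries labelled rTRS, DOX had more reads in ribosomal protein genes, with 9.11% and 8.55% of gene counts against 8.38% and 8.03% in rTRS, NTC. The column taken for rTRS, DOX replicate 2 carries another line prefix than the other 3 in the table and was assigned by its treatment and replicate number. The induced gene does not check this label, since Rybp had 113 and 110 CPM in NTC and 102 and 99.8 in DOX (edgeR, adjusted p = 0.0762), while Stat3 had 159 and 172 against 191 and 188 (0.20 ± 0.06). Of the members 29 were higher and 4 lower in DOX, where 43.4% of all genes were called, 23.0% higher and 20.4% lower, with a median of 0.13 (0.00 over all genes). Among genes of at least the members' abundance, 20.3% were higher and 40.7% lower. Rpl35 had 211 and 194 CPM in NTC and 360 and 297 in DOX (0.70 ± 0.08, edgeR, adjusted p = 2.3e-05), Rps15 had 634 and 504 against 940 and 727 (0.55 ± 0.11), and Rpsa 3407 and 3353 against 3945 and 3855 (0.21 ± 0.04). Rpl23a had 154 and 84.2 against 269 and 140, and these groups overlapped although its change of 0.78 ± 0.26 was called. Rps15a had 857 and 849 against 631 and 635 (-0.43 ± 0.05). Without DOX replicate 1 there were 9 higher and 6 lower members, without NTC replicate 2 there were 18 higher, and without NTC replicate 1 or without DOX replicate 2 there were 2 lower. Under DESeq2 17 members were higher and 5 lower, and the calls of Rpl23a and Rps15 were lost. With a replicate block 48 members were higher and 13 lower, and calls over all genes went from 7070 to 8559.

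**Figure D5:**
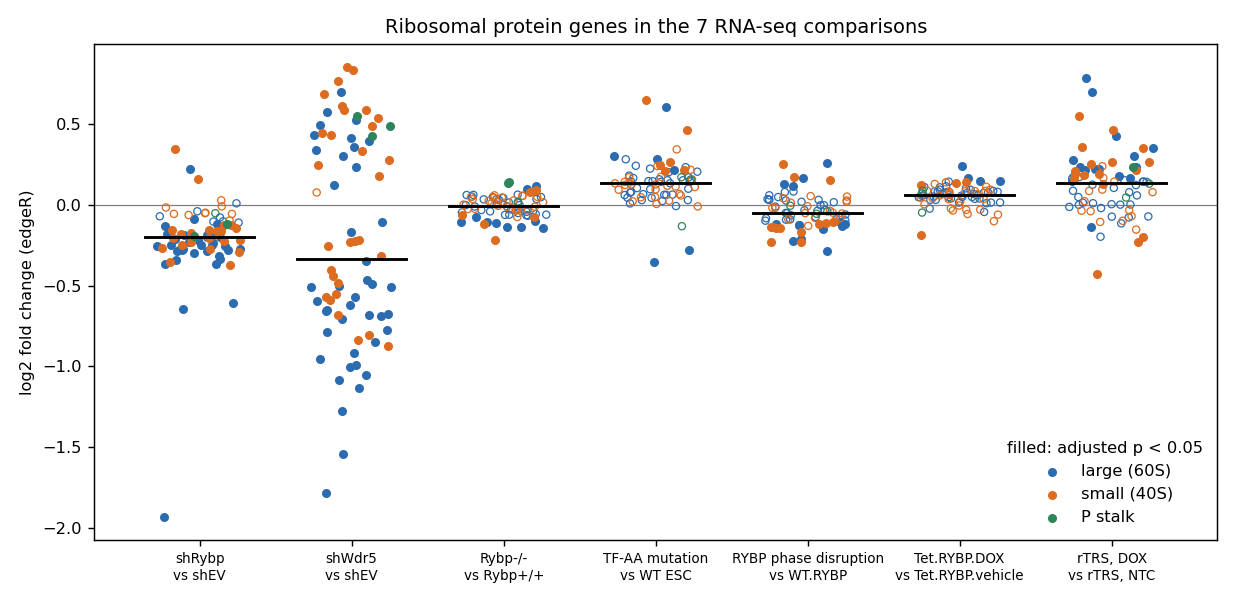
Log2 fold change of the 76 ribosomal protein genes in each of the 7 comparisons, coloured by subunit, with filled points for an adjusted p under 0.05 in edgeR and bars for the median of the members. The spread is widest after WDR5 depletion, from -1.79 to 0.85, and narrowest in Rybp-/- ESCs, from -0.22 to 0.14. Rpl10 at -1.93 stands apart after RYBP depletion.

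Each member was called in at least 1 of the 7 comparisons, of which the pair from shRybp and shWdr5 share the shEV libraries. There were 2 members called in 1 comparison, 25 in 2, 24 in 3, 17 in 4 and 8 in 5. Of the 13126 genes tested in all 7 tables, 5.76% were called in none, 13.9% in 1, 20.3% in 2, 23.7% in 3, 19.2% in 4 and 11.7% in 5, with a median of 3. Rpl37a and Rps2 were called in WDR5 depletion alone. Rpl23a and Rps26 were higher in 5 comparisons and lower in none. Rps26 had 0.68 ± 0.04 after WDR5 depletion, 0.22 ± 0.08 with TF-AA, 0.25 ± 0.04 with phase disruption, 0.14 ± 0.04 with RYBP overexpression and 0.21 ± 0.05 in the libraries labelled rTRS, DOX, and it had 0.03 after RYBP depletion and in Rybp-/- ESCs, where it was not called.

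Genes that work with ribosomal proteins were described from lists of biogenesis factors, translation factors with TOP mRNAs and ribosome-associated genes, paralogs, the p53 checkpoint, and MYC and mTORC1 regulators. For short, the list of translation factors and ribosome-associated genes is called TOP mRNAs, although not each gene in it was checked for that class. After WDR5 depletion 29 of 56 tested biogenesis factors fell and 13 rose, with a median of -0.14, where 31.5% of all genes were lower and 31.5% higher. Tcof1, the Treacher Collins factor of rRNA transcription, had 454 and 473 CPM in shEV and 251 and 275 in shWdr5 (-0.82 ± 0.05), and Utp20 rose by 0.76 ± 0.05. Of 21 TOP mRNAs other than the members 9 rose and 8 fell. Eef1g, a subunit of elongation factor 1, went from 1435 and 1387 to 474 and 459 CPM (-1.60 ± 0.04), and Naca also fell, while Tpt1 changed by 0.52 ± 0.04. Of 9 paralogs and genes named otherwise 4 rose and 5 fell, among them Rpl7l1, from 291 and 288 to 51.5 and 51.3 CPM (-2.49 ± 0.05), and Rps27l, a p53 target, at 0.95 ± 0.05. Of 10 genes of ribosomal protein assembly and the p53 checkpoint 3 rose and 5 fell. Mdm2, the ubiquitin ligase of p53, went from 141 and 129 to 706 and 682 CPM (2.37 ± 0.05), and Cdkn1a, which encodes p21, from 53.9 and 50.8 to 214 and 214 (2.03 ± 0.05). Of 16 regulators 4 rose and 7 fell, and Myc went from 67.9 and 74.2 to 29.2 and 30.9 CPM (-1.24 ± 0.07).

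After RYBP depletion 46 of 56 biogenesis factors and 19 of 21 TOP mRNAs fell, with medians of -0.28 and -0.36, and 2 and 0 rose, where 26.0% of all genes and 68.1% of genes of at least the members' abundance were lower. Scaling by library size alone moved the median of all genes from 0.02 to 0.18, and these lists were not recomputed under it. Nop10, of the H/ACA particles, had 127 and 126 CPM in shEV and 82.4 and 74.0 in shRybp (-0.69 ± 0.06), and the paralog Rpl22l1 had 81.8 and 74.2 against 35.0 and 28.7 (-1.29 ± 0.08). Of the 10 genes of assembly and the p53 checkpoint 7 fell and 2 rose, with a median of -0.26, and those that rose were Mdm2 (1.53 ± 0.05) and Cdkn1a (1.07 ± 0.06). Of the 16 regulators 10 fell and 1 rose, and Myc changed by -0.79 ± 0.06. In Rybp-/- ESCs 24 biogenesis factors rose and 6 fell, with a median of 0.05, where 22.8% of all genes were higher and 22.7% lower, and Mycn fell by 0.70 on the log2 scale.

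In RYBP phase disruption 33 of 56 biogenesis factors and 12 of 21 TOP mRNAs fell and none of either list rose, with medians of -0.14 for both, where 17.0% of all genes and 36.5% of genes of at least the members' abundance were lower. Gnl3, which encodes nucleostemin, had 442 and 458 CPM in WT.RYBP and 352 and 331 in RYBP phase disruption (-0.40 ± 0.04), and Myc 29.3 and 30.3 against 12.3 and 15.3 (-1.11 ± 0.11). With the TF-AA mutation 9 biogenesis factors rose and 2 fell, where 14.4% of all genes were higher and 16.1% lower. With RYBP overexpression 1 biogenesis factor and 4 TOP mRNAs rose and none fell, where 3.63% of all genes were higher and 2.39% lower. In the libraries labelled rTRS, DOX 42 of 56 biogenesis factors were lower and 1 higher, with a median of -0.37, where 20.4% of all genes and 40.7% of those of at least the members' abundance were lower. Of the members 29 were higher there. Heatr1, of the small-subunit processome, had 386 and 412 CPM in NTC and 196 and 208 in DOX (-0.98 ± 0.06), and Rpl10l 80.7 and 81.9 against 22.3 and 23.3 (-1.83 ± 0.08).

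Markers of other cell types moved in some comparisons. Of all genes tested, 23.0% were higher and 20.4% lower in rTRS, 26.8% and 26.0% after RYBP depletion and 31.5% and 31.5% after WDR5 depletion. In Rybp-/- ESCs the shares were 22.8% and 22.7%, with TF-AA 14.4% and 16.1%, and with phase disruption 16.1% and 17.0%. The lists are short, and no list was tested against these shares. In rTRS, 7 of 8 tested trophectoderm markers were higher in DOX, with a summed level of 150 to 162 CPM in NTC and 944 to 1008 in DOX, 5 of 9 mesoderm markers were higher and 7 of 9 ESC markers lower, with a summed level of 6256 to 6521 against 3866 to 4066. After RYBP depletion 7 of 9 trophectoderm markers were higher, from 57.4 to 62.6 CPM in shEV to 238 to 258 in shRybp, while 4 of 9 ESC markers were higher and 4 lower. After WDR5 depletion 6 of 9 ESC markers were lower, from 8303 to 8539 CPM to 6898 to 6968, and 5 of 8 trophectoderm markers higher, from 57.8 to 62.8 to 82.8 to 90.0. In Rybp-/- ESCs 8 of 10 feeder fibroblast markers were higher, from 113 to 115 CPM to 181 to 188, and 7 of 9 trophectoderm markers, from 70.7 to 74.8 to 96.0 to 99.4. Of 10 primitive endoderm markers 6 were higher and 1 lower after RYBP depletion and 5 were higher and 2 lower after WDR5 depletion, with summed levels of 154 to 171 CPM in shEV, 295 to 311 in shRybp and 271 to 272 in shWdr5. Of the neural markers 3 of 7 and 3 of 6 were higher and 2 in each lower, and their summed level was lower, from 292 to 304 CPM in shEV to 245 to 248 in shRybp and 177 to 188 in shWdr5. After RYBP depletion 5 of 6 tested fibroblast markers were higher, from 61.4 to 62.1 CPM to 101 to 102, while the defining genes Dcn and Lum were at 0 in all libraries of both knockdown tables. With TF-AA 4 of 6 fibroblast markers were higher, from 32.1 to 33.8 CPM to 53.8 to 56.4, with Col3a1, Dcn and Lum at 0 in all 4 libraries, and 3 of 5 trophectoderm markers, from 46.4 to 49.7 to 65.4 to 66.5. In RYBP phase disruption 5 of 8 trophectoderm markers were higher, from 274 to 284 CPM to 342 to 363, and 4 of 10 fibroblast markers were lower and 1 higher, from 466 to 475 to 406 to 435. The part of these cells in the members' changes was not tested, and fewer cells of a type cannot be told apart from less RNA per cell.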

How the data were processed

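RNA-seq and ChIP-seq of mouse ESCs were analysed from the processed files. Per the study's methods, the authors trimmed RNA-seq reads with Trim Galore, aligned them to mm9 with STAR and counted them per gene with htseq-count. The deposited values are raw counts in 7 tables, each compared only within itself. ChIP-seq reads were aligned with Bowtie2, and peak calling by the authors used MACS2, with input as control, on merged replicates for 10 of the 14 lists and on 1 library for the STAT3 lists of Rybp+/+ and Rybp-/- ESCs and the RING1B lists of shEV and shStat3 ESCs, which have 1 library each in the labels used here. The deposited peak lists give the fold enrichment as a ratio and the q-value as −log10. Whether counting used strand is not given in the sources used here.

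Counts were tested with the quasi-likelihood test of edgeR 4.0.16 (R 4.3.3) after filterByExpr and TMM scaling, with Benjamini-Hochberg adjustment over all genes tested, two-sided, and a threshold of 0.05. Libraries held 14512857 to 81049618 gene counts. The same shEV libraries appear in both knockdown tables, with different totals, and enter the number of libraries once. With 2 libraries a group an exact permutation test cannot go below 0.333. CPM are TMM-scaled, except that summed levels of marker lists use library size. Promoters are 1 kb either side of the annotated mm9 start, and at least 1 bp of overlap with a peak was required. That start is the outer upstream end of the gene model and was not matched to the RefSeq start of the printed sequences. The script was tested on simulated counts. Alternatives were DESeq2 1.42.0, other scalings, no filter, an added log2 fold change threshold of 0.5, a replicate block, each library left out, and other windows and overlaps for peaks.

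The members, gene lists and tests were chosen with earlier results of these data known. Named in each comparison were the 4 called members with the largest rises and the 4 with the largest falls, at a mean of at least 5 CPM, with a fixed set of members and Rybp, Wdr5 and Stat3 in every comparison and the 2 largest in each direction per gene list; other genes named with a WDR5 class, and Rps26, were chosen after their values were seen. Some genes that the rule names are not reported here.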

Additional observations from a re-analysis of the deposited data

How the results depend on the processing

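For the genes named, 2381 of the values under alternatives kept their direction and their side of the threshold, 136 lost the call, 60 gained it and 3 turned. The last were Rpsa, Rplp0 and Rplp1 after RYBP depletion, which had 0.094, 0.105 and 0.0408 with library size alone. The counts of promoter peaks and the counts by WDR5 class, the latter with alternatives chosen after seeing the data, stayed within 1.5 times under all settings tried, with 36 to 42 strongly bound members lower and 21 to 24 weakly bound members higher after WDR5 depletion.

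Counts of members moved more. With library size alone there were 11 higher and 20 lower after RYBP depletion, 17 higher and 8 lower in Rybp-/- ESCs, 16 higher with TF-AA, 11 higher and 5 lower with phase disruption, and 1 higher with RYBP overexpression. Calls over all genes were then 8660, 7692, 4488, 4763 and 892 in that order, against 8721, 7720, 4412, 4814 and 899 in the main fits. With DESeq2 there were 7 lower in Rybp-/- ESCs, 6 higher with TF-AA and 17 higher in the libraries labelled rTRS, DOX. It called fewer genes in all, with 6680, 3171 and 6614 in these comparisons against 7720, 4412 and 7070 in edgeR. Without a filter there were 16 higher with TF-AA, and 4 higher and 13 lower with phase disruption, where 4619 and 3264 of all genes were called against 4412 and 4814 with it. With an absolute log2 fold change above 0.5 required in addition, 0 were higher and 3 lower after RYBP depletion and 12 higher after WDR5 depletion, 2 higher and 0 lower remained with TF-AA, 3 higher and 0 lower in rTRS, and 0 in either direction in Rybp-/- ESCs, with phase disruption and with RYBP overexpression.

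With 1 library left out at a time, the ranges of members higher and lower were 2 to 3 and 43 to 68 after RYBP depletion, 29 to 31 and 44 to 45 after WDR5 depletion, 5 to 17 and 3 to 21 in Rybp-/- ESCs, 3 to 56 and 1 to 7 with TF-AA, 1 to 8 and 8 to 22 with phase disruption, 0 to 46 and 0 to 5 with RYBP overexpression, and 9 to 37 and 2 to 6 in rTRS. The lone library of a group is then assumed to vary like the pair of the other group.

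Groups share replicate numbers but nothing ties the numbers to a shared culture. The deviations of same-numbered libraries from their group means had correlations of 0.001 to 0.15, and -0.001 with phase disruption, and with 2 numbers a group no pairing can be read from them. With a replicate block 25 members were higher with TF-AA, 11 with RYBP overexpression, and 48 higher and 13 lower in rTRS, and all other counts of members stayed within 1.5 times. The cause of these shifts was not tested. Depth was not examined for the peak lists, so a promoter without a peak may hold WDR5 below what the lists could show.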
